A study of Mus musculus with 2 samples.

Results

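Mir208a, Mir208b and Mir499 are the microRNA (miRNA) genes that lie in introns of the cardiac myosin heavy chain genes Myh6, Myh7 and Myh7b. They were chosen by name, after gene identifiers had been matched to GENCODE M21 symbols, and make up 3 of the 2202 miRNA genes counted. MicroRNA-seq libraries were made from whole heart of 2 male mice aged 25 days, with RNA under 30 nucleotides selected. The animals were B6CASTF1/J, first-generation hybrids of C57BL/6J and CAST, a strain derived from wild mice, and the labels name no treatment, allele or contrast, so both libraries form 1 group. Each animal has its own number in the labels, but 1 donor identifier covers both, so the spread between the libraries may be technical, and a description attached to both gives the age in months. Replicate 1 held 4930853 counts assigned to miRNA genes and replicate 2 held 5229819. Levels are counts scaled to an assigned total of 1000000 (CPM), a gene with at least 10 counts in both libraries is called detected, and intervals cover counting error only.

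MicroRNAs are cut from hairpin transcripts into mature strands that guide silencing of messenger RNAs, mainly through the seed, bases 2 to 8 of the mature strand. Myosin heavy chains are the motor proteins of the thick filament. In mouse ventricle the beta chain of Myh7 prevails before birth and the alpha chain of Myh6 after birth, and stress or low thyroid hormone can bring the beta chain back. The miRNAs in the myosin introns are known as myomiRs: miR-208a is known for its part in the beta-myosin response to stress, and miR-208b and miR-499 for favouring slow muscle genes, with the repressor Sox6 among their targets.

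The sequences below are the strands that carry the family likeness, with the seed in capitals, followed by the opposite strands. All 3 genes matched RefSeq entries (build GRCm38.p6, the assembly called mm10), and the RefSeq hairpins are identical to the GENCODE M21 transcripts.
mmu-miR-208a-3p: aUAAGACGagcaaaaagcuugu
mmu-miR-208b-3p: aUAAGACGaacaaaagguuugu
mmu-miR-499-5p: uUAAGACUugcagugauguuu
mmu-miR-208a-5p: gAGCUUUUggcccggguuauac
mmu-miR-208b-5p: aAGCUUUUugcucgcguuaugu
mmu-miR-499-3p: gAACAUCAcagcaagucugugcu

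Mir208a and Mir208b have the same seed on the 3p strand, and among the 1679 mature miRNAs of the RefSeq table no other carries it. The strands miR-208a-3p and miR-208b-3p are identical at 19 of 22 bases and differ by G10A, A16G and C18U, counted from 1 at the 5′ end with the base of miR-208a first. In miR-499-5p the last base of the seed differs from that of miR-208a-3p by G8U, while bases 2 to 7 are the same. Those 6 bases, UAAGAC, open the seed of these 3 mature miRNAs and of no other in the table. Over the whole strand, miR-499-5p is identical to miR-208a-3p at 12 of the 21 compared bases and to miR-208b-3p at 10. The 5p strands of Mir208a and Mir208b also share a seed, which 1 further miRNA, miR-6415, carries, whereas the seed of miR-499-3p is found in no other entry.

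The hairpins are shown whole, with both mature strands in capitals, because the shared strand comes from the 3′ arm of Mir208a and Mir208b and from the 5′ arm of Mir499.
Mir208a: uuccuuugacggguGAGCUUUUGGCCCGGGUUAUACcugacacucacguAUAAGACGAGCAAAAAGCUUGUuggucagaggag
Mir208b: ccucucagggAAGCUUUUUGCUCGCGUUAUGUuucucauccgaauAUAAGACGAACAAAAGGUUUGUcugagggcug
Mir499: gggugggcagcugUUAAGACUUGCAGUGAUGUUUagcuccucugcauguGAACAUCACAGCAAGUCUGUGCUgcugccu
The arms are separated by 13 bases in Mir208a, 13 in Mir208b and 15 in Mir499. Hairpin GC content was 49.4%, 45.5% and 51.9% in that order, near the median of 51.4% over the hairpins of the 356 detected genes. The longest run of bases that Mir208a or Mir208b shares with another counted miRNA gene, on either strand, is the 14 bases they share with each other, and for Mir499 it is 13 bases. None of the 3 shares 20 bases with another counted miRNA gene. The counts are per hairpin gene and do not separate the 5p from the 3p strand.

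Mir208a (ENSMUSG00000065432.1) lies on chromosome 14 from 54949060 to 54949142 of mm10, on the minus strand, in intron 29 of the 39-exon transcript Myh6-201. Mir208b (ENSMUSG00000077928.1) lies on the same strand of chromosome 14 from 54975700 to 54975776, in intron 31 of the 41-exon transcript Myh7-201. The host introns therefore match when counted from the 3′ end, with 10 exons following each of them, and 26.6 kb separate the 2 miRNA genes. Mir499 (ENSMUSG00000076312.1) lies on the plus strand of chromosome 2 from 155622880 to 155622958, in intron 19 of the 42-exon transcript Myh7b-201, with 23 exons after it. The host introns are 542, 461 and 481 bases long for Mir208a, Mir208b and Mir499. No annotated gene overlaps any of the 3 hairpins on the other strand, and the next counted miRNA gene to Mir499 is 266 kb away.

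**Figure D1:**
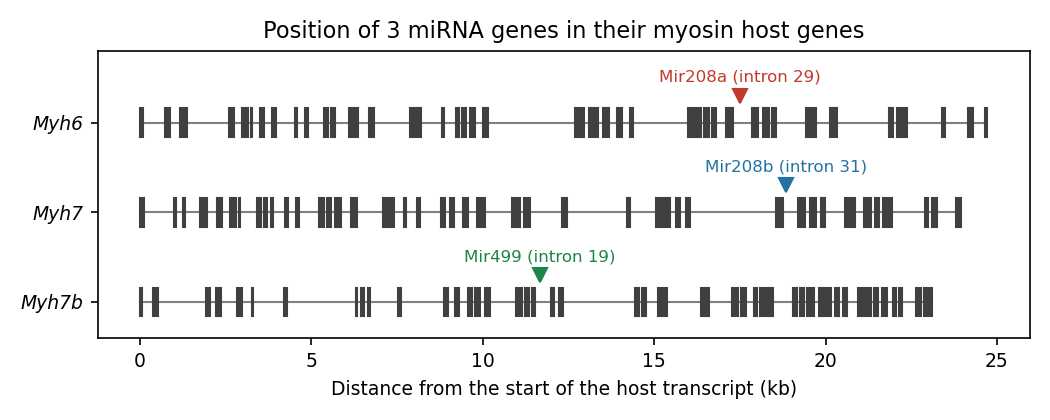
Exons (boxes) and introns (lines) of the host transcripts Myh6-201, Myh7-201 and Myh7b-201, with distance from the transcript's start in kb on the x axis. Triangles mark Mir208a in intron 29, Mir208b in intron 31 and Mir499 in intron 19; the first 2 sit towards the 3′ end of their hosts, and Mir499 near the middle.

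All 3 genes were detected, and their reads came from 1 strand. Mir499 had 14464 counts in replicate 1 and 14425 in replicate 2, Mir208a had 6713 and 18629, and Mir208b had 941 and 1004. The counts without regard to strand were the same numbers, and the opposite strand had 0 counts for each gene in both libraries, which allows levels of at most 0.608 and 0.574 CPM in replicates 1 and 2. Besides these 3, the annotation places 1 miRNA gene inside a gene named Myh. This is Mir6923 in Myh3, the embryonic skeletal muscle myosin, which had 0 counts in both libraries.

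Mir499, the miRNA of the Myh7b intron, was at 2933 and 2758 CPM in replicates 1 and 2, with a mean of 2846 ± 124 CPM (SD, n = 2). It ranked 32nd and 39th of the 2202 genes. Mir208a, the miRNA of the alpha-myosin gene, was at 1361 CPM (exact Poisson 95% interval 1329 to 1394) in replicate 1 and at 3562 CPM (3511 to 3614) in replicate 2, with a mean of 2462 ± 1556 CPM. It moved from rank 62 to rank 35. Mir208b, the miRNA of the beta-myosin gene, was at 191 CPM (179 to 203) in replicate 1 and at 192 CPM (180 to 204) in replicate 2, with a mean of 191 ± 0.804 CPM, and ranked 117th and 123rd. Mir208a thus varied by 63.2% of its mean (SD over mean), Mir499 by 4.35% and Mir208b by 0.420%. The value for Mir208b is smaller than its counting error, so it does not show Mir208b to be steadier than Mir499. In whole heart tissue, fewer cells of a type and less RNA per cell cannot be told apart.

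The order of the levels was not the same in the 2 hearts. Mir208b was the lowest of the 3 in both. In replicate 1 Mir499 counts were 2.15 times those of Mir208a (exact 95% interval 2.09 to 2.22), and in replicate 2 Mir208a counts were 1.29 times those of Mir499 (1.26 to 1.32; exact binomial test of equal counts, two-sided, adjusted p = 1.48e-118 over 3 pairs in 2 libraries). Both differences exceed counting error, but by their means Mir499 and Mir208a differ by less than the SD of Mir208a. Mir208b lay below both by more than that spread. Mir499 counts were 15.4 times (14.4 to 16.4) and 14.4 times (13.5 to 15.3) those of Mir208b in replicates 1 and 2. Mir208a counts were 7.13 times (6.66 to 7.65) and 18.6 times (17.4 to 19.8) those of Mir208b, so the size of this gap rests on which heart is taken. A small-RNA read spans a whole mature strand, so counts were not divided by length. Divided by hairpin length, Mir208a over Mir499 was 0.442 in replicate 1 and 1.23 in replicate 2, with the same order. Ratios between genes also carry the ligation preferences of small-RNA libraries, which were not measured.

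Tested between libraries, the odds of Mir208a over Mir499 were 2.78 times higher in replicate 2 (exact 95% interval 2.68 to 2.89), and those of Mir208a over Mir208b 2.60 times higher (2.37 to 2.86; Fisher's exact test, two-sided, adjusted p = 1.44e-86 over 3 pairs). The p for the first pair was too small for double-precision arithmetic. The odds of Mir499 over Mir208b did not pass the test, with an odds ratio of 0.935 (0.852 to 1.03; Fisher's exact test, adjusted p = 0.153). These odds do not depend on how the libraries are scaled. Only the pairs with Mir208a passed among the 3 pairs, and both rest on the ratio of Mir208a between the libraries. The share of all pairs of detected genes that would pass was not computed. Gene by gene, the exact binomial test called 63.5% of the detected genes between the libraries. The tests compare 2 libraries, not conditions.

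The 3 genes together had 22118 counts in replicate 1 and 34058 in replicate 2, or 0.449% and 0.651% of assigned counts. Mir208b and Mir499 summed to 15405 and 15429 counts, 24 more in replicate 2, while Mir208a alone had 11916 more. Scaled to the totals, the sum of the 3 was 4486 and 6512 CPM, and the sum without Mir208a was 3124 and 2950 CPM. Of the counts of the 3 genes, Mir208a held 30.4% (Clopper-Pearson 95% interval 29.7 to 31.0%) in the first heart and 54.7% (54.2 to 55.2%) in the second. Mir499 held 65.4% (64.8 to 66.0%) and 42.4% (41.8 to 42.9%), and Mir208b 4.25% (3.99 to 4.53%) and 2.95% (2.77 to 3.13%). The shares of Mir499 and Mir208b are lower in replicate 2 with nearly the same counts.

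**Figure D2:**
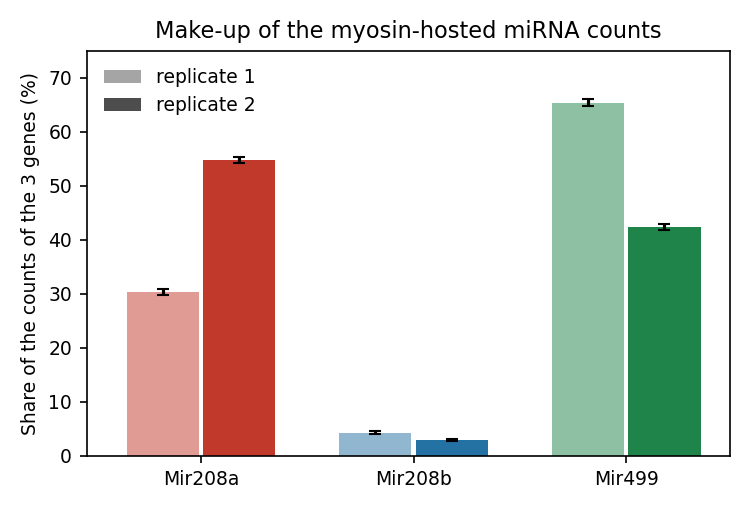
Share of the summed counts of Mir208a, Mir208b and Mir499 held by each gene (y axis, %), in replicate 1 (pale) and replicate 2 (dark); bars show the exact 95% binomial interval. Mir208a goes from 30.4% to 54.7% and Mir499 from 65.4% to 42.4%.

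Between the 2 hearts Mir208a was higher in replicate 2, and the other myosin-hosted genes had ratios within 1.10-fold. Mir208a was 2.62-fold higher in replicate 2 (exact 95% interval 2.54 to 2.69), a log2 ratio of 1.39, and its p in the exact binomial test was too small for double-precision arithmetic. Mir499 was lower in replicate 2 by a log2 ratio of -0.09, at 0.940 times its level in replicate 1 (0.919 to 0.962; exact binomial test, Benjamini-Hochberg adjusted p = 4.23e-07). The DESeq2 size factors were 1 for both libraries, so that setting left the counts unscaled for depth. With it the log2 ratio of Mir499 was -0.0039 and the call was lost (exact binomial test, adjusted p = 0.910). Mir208b was not called, at 1.01 times (0.919 to 1.10; adjusted p = 0.953, exact binomial test), and its sign turned with TMM scaling. The test thus called 2 of the 3 genes, against 63.5% of the 356 detected genes, of which 32.9% were higher and 30.6% lower in replicate 2, so the number of calls is near the background.

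By size, the median absolute log2 ratio over the detected genes was 0.45, and 63 genes (17.7%) differed by more than 2-fold. Of the 356 genes, 26 (7.30%) had a larger absolute ratio than Mir208a, 310 (87.1%) a larger one than Mir499 and 349 (98.0%) a larger one than Mir208b. The binomial test covers counting error only. In edgeR's exact test with 1 common dispersion, estimated with both hearts as replicates (biological coefficient of variation 0.386), Mir208a had an unadjusted p of 0.0896 and an adjusted p of 1, and 4 of the 356 genes (1.12%) were called. In that test 19 genes (5.34%) had an unadjusted p under 0.05. Its dispersion comes from the same 2 libraries that it compares, so few calls follow from its construction, and it places Mir208a among the genes without testing a difference between animals. With 2 libraries, the data do not separate a difference between the animals from one between the preparations.

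**Figure D3:**
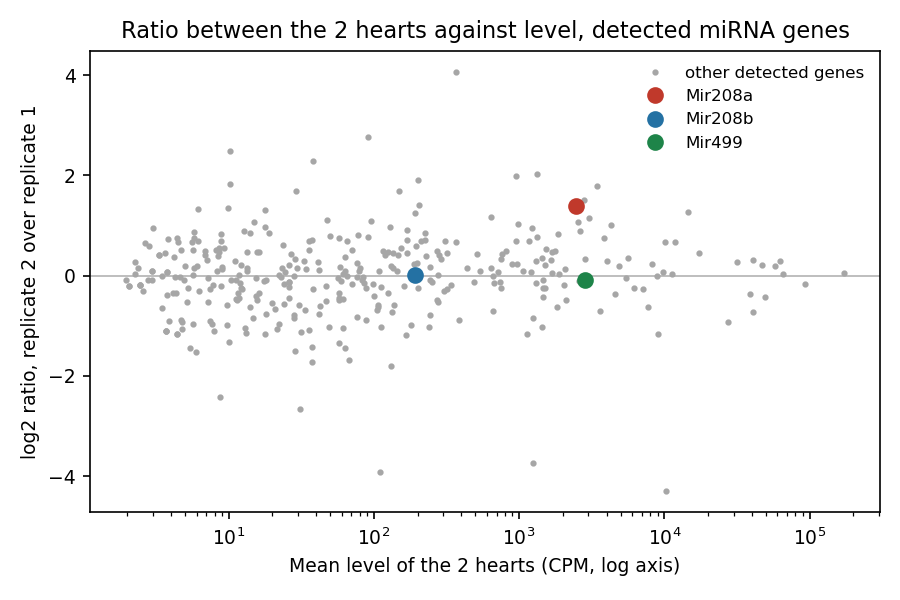
Log2 ratio of replicate 2 over replicate 1 (y axis) against mean level in CPM (x axis, log scale) for the 356 detected miRNA genes, each a point. Mir208a lies at 1.39, above most genes, while Mir499 (-0.09) and Mir208b (0.0085) lie near 0.

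Markers of other cell types in the tissue were counted in the same way, and their calls are to be read against the 63.5% of all detected genes called by the exact binomial test. The smooth muscle and fibroblast list had 6 of 7 genes detected, 4 higher and none lower in replicate 2, and summed to 33454 and 45981 CPM in replicates 1 and 2. Its most abundant genes were Mir143, a smooth muscle miRNA, at 28767 and 34638 CPM, and Mir21a, known from activated fibroblasts, at 1540 and 5341 CPM, and Mir199a-1 was at 0 in both. The red blood cell list, Mir451a and Mir144, was lower in replicate 2 in 2 of 2 genes and summed to 21812 and 1161 CPM. Mir451a was at 19490 and 986 CPM and Mir144 at 2321 and 175 CPM, and both lie on chromosome 11. Mir486, also known from red blood cells but kept in the heart list below, went the other way. It was at 731 and 1173 CPM in replicates 1 and 2. The endothelial list had 5 of 6 genes detected, 4 higher and 1 lower, and summed to 59934 and 73470 CPM, led by Mir126a (56392 and 69422 CPM) and Mir221 (1335 and 2368 CPM). All 4 matched genes of the leukocyte list were detected, with 2 higher, 1 lower and 1 not called, and they summed to 4788 and 5126 CPM. That list was led by Mir155, at 2767 and 2751 CPM, and Mir150, at 1416 and 1968 CPM. Its entry Mir146a was not matched by name. A counted gene with the symbol Mir146, at 649 and 1318 CPM and called higher in replicate 2, is outside these leukocyte counts and sums. The neuron list had 0 of 6 genes detected, with sums of 2.03 and 1.15 CPM. Of its genes Mir124a-1, Mir124a-2, Mir124a-3 and Mir9-2 were at 0 in both libraries, while Mir9-3 had 8 and 6 counts and Mir9-1 had 2 and 0. In edgeR's exact test, Mir451a and Mir144 were called lower, and no gene of the other marker lists or of the heart list below was called. With Mir451a and Mir144 taken out of the totals, the log2 ratio of Mir208a was 1.36, an alternative added after the data were seen. The part of the other lists in the Mir208a ratio was not tested.

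Among 12 heart and striated muscle miRNA genes, the 3 myosin-hosted genes held most of the assigned counts. They made up 84.5% of the list's summed CPM in replicate 1 and 83.5% in replicate 2. The other 9 ranged from 0.979 to 952 CPM on average, with 5 detected, 2 higher and 0 lower in replicate 2 by the exact binomial test, against 63.5% called over all detected genes. Their median log2 ratio over the 5 detected genes was -0.26, the value of Mir1a-2, which was not called, beside 0.02 over all detected genes. The summed level of the 9 was higher in replicate 2, at 822 and 1289 CPM in replicates 1 and 2, most of it from Mir486. Mir486, a miRNA of red blood cells and muscle, was at 731 and 1173 CPM in replicates 1 and 2, and Mir3107, on the opposite strand of the same locus, at 36.3 and 62.9 CPM; both were higher in replicate 2. Mir1a-2 and Mir1a-1, copies of the miR-1 gene known from heart muscle, had 203 and 180 counts and 14 and 12 counts, and neither was called.

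The remaining list genes were near the detection limit. Mir206, a skeletal muscle miRNA, had 34 and 29 counts in replicates 1 and 2, and Mir133b, which lies beside it in the genome, had 7 and 10. Mir133a-1 had 3 and 30 counts, Mir133a-2 had 6 and 7, and Mir1b had 4 and 6. Reads placed at several loci, 41.6% and 37.4% of all reads in replicates 1 and 2, are in no gene's count. Of the other 9 list genes, 8 share a 20-base run with another counted miRNA gene, against 0 of the 3 myosin-hosted genes. The levels of the 3 against these 9 are therefore not a ranking of the mature miRNAs.

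**Figure D4:**
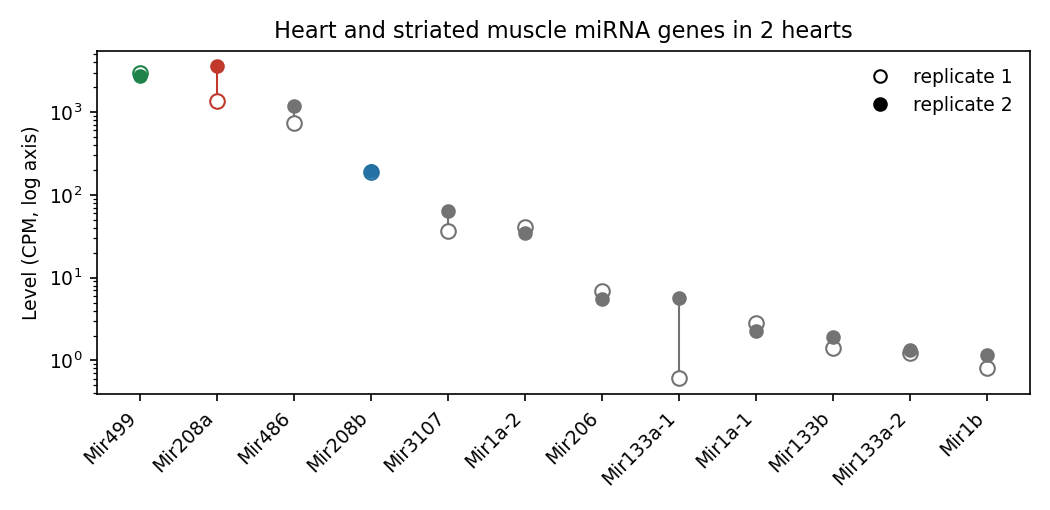
Level in CPM (y axis, log scale) of the 12 heart and striated muscle miRNA genes in replicate 1 (open) and replicate 2 (filled), ordered by mean level. Mir499 and Mir208a lead the list, and Mir208a lies below Mir499 in replicate 1 and above it in replicate 2; Mir208b, after Mir486, has its points on top of each other.

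Many miRNA genes lie in host genes as these do. Of the 2202 genes, 969 lie within a protein-coding gene on the same strand, and 172 of those (17.8%) were detected, against 184 of the 1233 others (14.9%). By mean level Mir499 ranked 21st, Mir208a 23rd and Mir208b 57th among the 172 hosted and detected genes, whose median was 57.6 CPM. Mir499 was 49.4 times that median, Mir208a 42.8 times and Mir208b 3.32 times. The levels of the host messenger RNAs were not analysed here.

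The genes with the most similar values were found by the distance between log2 CPM in the 2 libraries, so likeness covers a level and 1 ratio only. Nearest to Mir208a were Mir34a at a distance of 0.25 (1462 and 4167 CPM in replicates 1 and 2), Mir674 at 0.28 (1652 and 3460 CPM) and Mir140 at 0.44 (1838 and 3423 CPM), all 3 higher in replicate 2. Nearest to Mir499 were Mir155 at 0.08, Mir127 at 0.18 (2705 and 2503 CPM) and Mir29a at 0.29 (2530 and 3174 CPM). Nearest to Mir208b were Mir152 at 0.16 (174 and 203 CPM), Mir101b at 0.18 (183 and 216 CPM) and Mir671 at 0.20 (217 and 182 CPM). None of the 9 lies on chromosome 14 with Mir208a and Mir208b, and Mir674 and Mir499 share chromosome 2.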

How the data were processed

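Whole-heart microRNA-seq libraries of 2 mice were used. The deposited values are raw read counts per miRNA gene, 1 file per library, with build mm10 and annotation GENCODE M21 per the text deposited with the files; the sources used here do not name the aligner or the counter. The column for the gene's own strand was used, and the 4 entries that name no gene were left out of totals and tests; assigned reads were 37.3% and 36.4% of all reads in replicates 1 and 2. Reads of CAST alleles were counted on the C57BL/6J build. CPM used the assigned total, and log2 values a pseudocount of 0.5 counts. Libraries were compared gene by gene with an exact conditional binomial test (scipy 1.17.1), adjusted by Benjamini-Hochberg over the 356 detected genes at 0.05; 1 group leaves no contrast for a quasi-likelihood fit. Ratios within a library used exact binomial tests and odds Fisher's exact test. Alternatives were TMM and the exact test of edgeR 4.0.16, DESeq2 1.42.0 size factors, other totals, count minimums of 1 and 100, the unstranded column and leaving out a library. The scripts were tested on simulated data. Members, lists (39 of 40 entries matched; Mir146a was not) and tests were chosen with earlier results of these data known. Named genes are the 3 members, the 3 nearest to each, the heart list, and the top 2 and zero-count genes of each marker list. Mir6923 and Mir146 were added after their values were seen. RefSeq gave the sequences.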

Additional observations from a re-analysis of the deposited data

How the results depend on the processing

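The log2 ratio of Mir208a was 1.34 with TMM scaling, 1.47 with DESeq2 size factors and 1.35 with all reads as the total, and was called by the exact binomial test under each. The unstranded column gives the same counts for the 3 genes and the count minimums leave their ratios as they are, so these do not test them. Counted against all reads, the mean levels were 903 for Mir208a, 70.6 for Mir208b and 1049.6 for Mir499 per 1000000 reads, and in the unstranded column, whose total leaves out ambiguous reads, 3392 CPM for Mir208a, 263.5 CPM for Mir208b and 3918 CPM for Mir499. The log2 ratio of Mir208b, which was never called, turned to -0.0379 with TMM scaling, -0.0273 with all reads and -0.0216 without Mir451a and Mir144. The log2 ratio of Mir499 was -0.0039 with DESeq2 size factors and lost its call. Those factors were 1 for both libraries, so they left the difference in assigned totals uncorrected. That moved every ratio by 0.08 and is not an independent scaling. With edgeR's exact test the log2 ratios of 1.39 for Mir208a and -0.0888 for Mir499 were no longer called (adjusted p = 1 for both), and the number of genes that differ was 4 in place of 226, because that test adds the spread over all genes. Leaving out a library gave 1361 to 3562 CPM for Mir208a, so 1 library decides its mean. No paired analysis was possible because there is 1 group. Counting error was small for the 3 genes, and the number of libraries limits the precision.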
